A study of Capsicum annuum with 6 samples.

Results

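The 9 genes described here are the members of a calcium-mediated signaling list of pepper (Capsicum annuum) that lie outside 2 groups of neighbouring genes on chromosomes 6 and 7. They are 9 of 17 genes on that list and 9 of 24829 genes with deposited values. The study placed them on the list because they differed between the compact accession B010, with its narrow first branch angle, and the loose accession B003, whose angle is wide. Their differences between the accessions chose them and are therefore given as a description, without a test. RNA was sequenced from the first branch site, the fork of the main stem, at the early flowering stage. B010 and B003 had 3 libraries each, every library made from tissue of 8 pooled plants. The labels name no treatment, and 1 accession of each plant form was sampled, so branch angle cannot be told apart from any other difference between B010 and B003.

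In plant cells, calcium ions that enter the cytosol after a stimulus are bound by sensor proteins. Calmodulins and calmodulin-like proteins change the activity of their partners, calcium-dependent protein kinases join sensor and kinase in 1 protein, and calcineurin B-like proteins act through their own kinases. In Arabidopsis, cytosolic calcium rises when seedlings are turned against gravity, which links this signaling to the direction of growth. The deposited values pair the 9 identifiers with no gene name, so which of these kinds each gene encodes is not stated here. For 1 of them, Capann_59Chr06g019880, the study designed a pair of qRT-PCR primers. They are shown as the sequences designed to assay a member outside the sequencing counts. Whether they also match other genes was not checked. The forward primer has 20 bases and the reverse primer 22, and all bases are in lower case because none is singled out.
Capann_59Chr06g019880 forward: gcacggggttcatcgagagg
Capann_59Chr06g019880 reverse: gtacgaagctcgggaaagcagt

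The libraries held between 29891192 and 47659515 counts on genes, and 3 counts, the upper limit for a gene counted 0 times, make at most 0.1 CPM (a gene's counts scaled to a common library size). Levels are given as deposited FPKM, which divides by exon length and by library size, or as CPM scaled by TMM factors between 0.923 and 1.12. Log2 fold changes (B010 over B003) came from edgeR's quasi-likelihood fit to 24738 genes, and a gene was called when its adjusted p was at most 0.05 and its absolute log2 fold change at least 1. Of all tested genes, 25.3% were called, 12.5% as higher in B010 and 12.8% as higher in B003.

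Of the 9 genes, 6 had a higher level in B010 and 3 in B003, and 7 were called, 5 as higher in B010 and 2 as higher in B003. With 1 library left out the count was 3 without B010 replicate 2 or B003 replicate 3, 4 without B010 replicate 1 or B003 replicate 2, 5 without B003 replicate 1 and 6 without B010 replicate 3. Calls over all genes moved as well, from 6260 to 4560 without B010 replicate 2 and 4117 without B003 replicate 3. They were 3615 without B010 replicate 1, 4294 without B003 replicate 2, 6815 without B003 replicate 1 and 6967 without B010 replicate 3. All 9 passed the filter on low counts. Their median absolute log2 fold change was 2.00, beside 0.57 over all tested genes. In 7 of the 9 genes B010 and B003 libraries were fully separate, beside 54.4% of all tested genes. Because the list was drawn from genes that differed in these same libraries, these counts describe the list and support nothing about it.

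**Figure D1:**
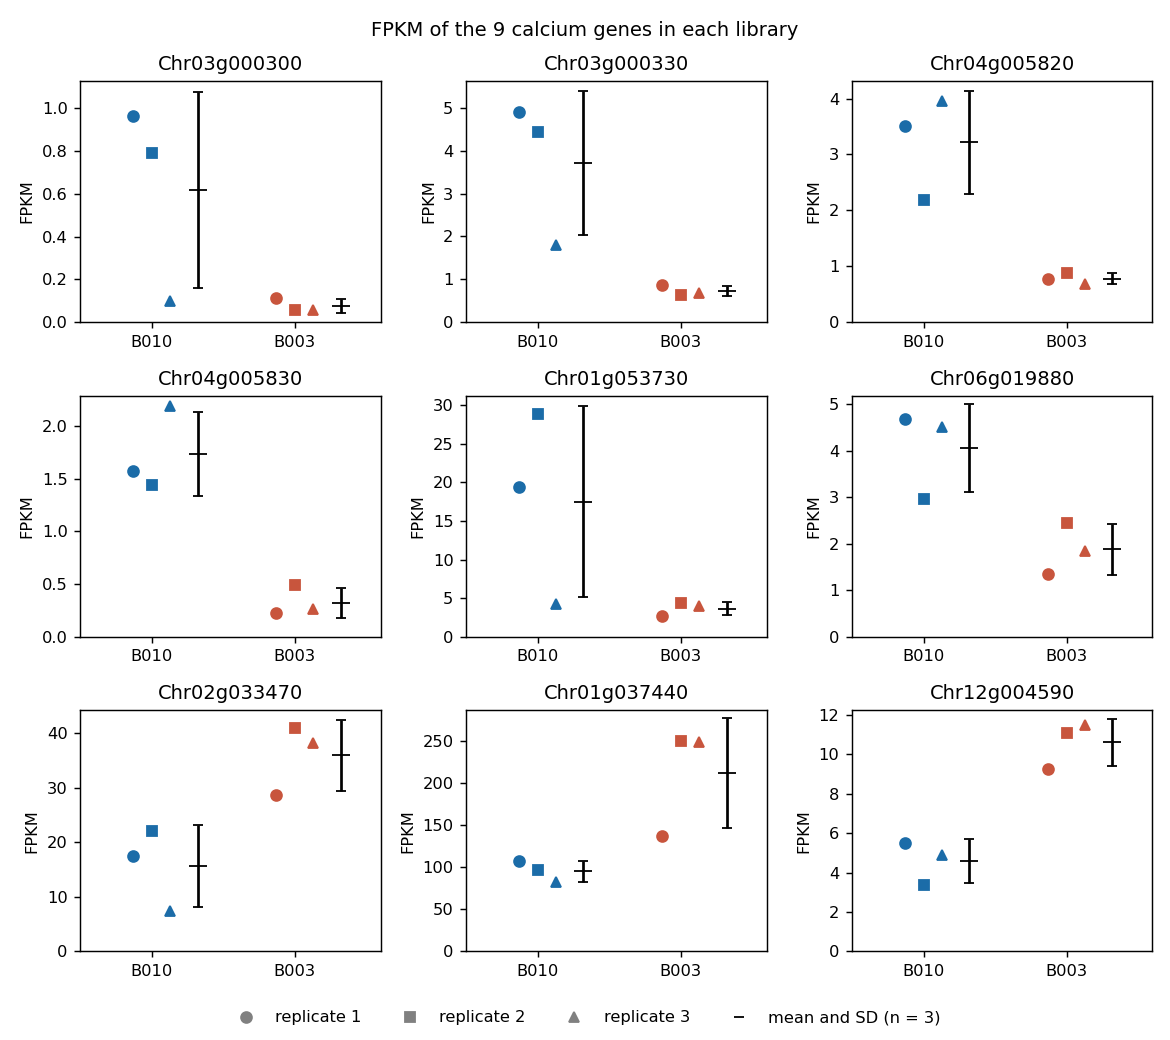
FPKM (vertical axis, linear, a scale of its own in each panel) of the 9 genes in the 3 B010 and 3 B003 libraries, with symbols for the replicates and the mean and SD beside them. B010 replicate 3 lies close to the B003 libraries in Chr03g000300, at 0.0995 FPKM, and in Chr01g053730, at 4.27 FPKM.

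Capann_59Chr03g000300 and Capann_59Chr03g000330 stand 3 places apart in the order of listed genes on chromosome 3. Capann_59Chr03g000300 had 174, 92 and 12 counts in B010 replicates 1, 2 and 3, against 16, 7 and 7 counts in the B003 replicates. Replicate 3 of B010, with 12 counts and a 95% Poisson interval of 6.2 to 21.0, could not be distinguished from the B003 libraries at this depth, whereas replicates 1 and 2 lay far above them. In FPKM, the gene averaged 0.618 ± 0.458 in B010 and 0.075 ± 0.0326 in B003 (SD, n = 3 each), the lowest levels of the 9 genes in both accessions. The fitted log2 fold change was 3.06 ± 0.89 (SE), an 8.36-fold higher level in B010 that had the widest standard error of the 9. Without B010 replicate 3 it was 3.57, and the gene stayed called. It was not called when any one of the other 5 libraries was left out, with log2 fold changes from 2.66 to 3.41. On the log2(FPKM + 1) scale, which understates changes of low genes, limma gave a difference of 0.55 and no call. On log2(FPKM + 0.1) the difference in limma was 1.73, above the fold limit, and the gene was still not called. With the replicate number as a block, edgeR gave 2.72 and no call.

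Capann_59Chr03g000330 was expressed at a higher level. It had 4.9, 4.44 and 1.79 FPKM in the B010 replicates, against 0.866, 0.644 and 0.67 FPKM in the B003 replicates. B010 replicate 3 was again the lowest B010 library, but here it stayed above all B003 libraries. The fitted difference on the log2 scale was 2.37 ± 0.45 (SE), a 5.18-fold higher level in B010, and the gene was called whichever library was left out. The coefficient of variation of CPM was 50.2% in B010 and 9.98% in B003.

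The relative levels of this pair differed between the libraries. Capann_59Chr03g000330 exceeded Capann_59Chr03g000300 by 5.07, 5.62 and 18.0 times in FPKM in B010 replicates 1, 2 and 3. In B003 it exceeded it by 7.69, 11.6 and 11.8 times. The widest gap within the pair was thus in B010 replicate 3, where the weaker gene rested on 12 counts. As a mean, the log2 ratio of Capann_59Chr03g000300 to Capann_59Chr03g000330 was -3.00 ± 1.02 in B010 and -3.35 ± 0.35 in B003 (SD, n = 3 each), so the accessions overlapped. The exon lengths implied by counts and FPKM are about 3858 and 3812 bases, nearly equal. Where 2 neighbouring genes are close copies, reads can be split between them, and how the authors counted reads that align to several places is not given in the sources used here.

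Capann_59Chr04g005820 and Capann_59Chr04g005830 are adjacent in the order of listed genes on chromosome 4 and were both higher in B010. Capann_59Chr04g005820 had 3.51, 2.19 and 3.96 FPKM in B010, against 0.777, 0.877 and 0.678 FPKM in B003. Every B010 library lay above every B003 library, and B010 replicate 3 was the highest rather than the lowest. The log2 fold change was 2.00 ± 0.23 (SE), which is the smallest standard error among the 9 genes, and it stayed between 1.91 and 2.16 whichever library was left out.

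Capann_59Chr04g005830 was counted 63, 38 and 57 times in B010, against 7, 14 and 7 times in B003. The groups did not overlap, although the B003 values rest on few counts, with 95% Poisson intervals of 2.81 to 14.4 for 7 counts and 7.65 to 23.5 for 14. In the edgeR fit, the log2 fold change was 2.35 ± 0.41 (SE), a 5.11-fold higher level in B010. In FPKM, Capann_59Chr04g005820 exceeded its neighbour by 2.24, 1.52 and 1.81 times in the B010 replicates and by 3.47, 1.8 and 2.61 times in the B003 replicates. The log2 ratios of the pair, at 0.87 ± 0.29 in B010 and 1.34 ± 0.47 in B003 (SD, n = 3 each), overlapped between the accessions. Together with Capann_59Chr03g000330, both were called whichever library was left out, which held for 3 of the 9 genes. The share of all tested genes that kept their call in this way is not given here, so this count describes the list alone.

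Capann_59Chr01g053730 had the highest B010 level of the genes higher in that accession and uneven B010 replicates. Its levels were 19.4, 28.8 and 4.27 FPKM in B010 replicates 1, 2 and 3, against 2.64, 4.32 and 3.98 FPKM in the B003 replicates. B010 replicate 3 fell inside the range of B003, and the accessions overlapped. The gene was counted 146 times in that library, so depth does not limit this value. B010 over B003 gave a log2 fold change of 2.30 ± 0.74 (SE), and the gene was not called. Without B010 replicate 3 the log2 fold change was 2.78 and the gene was called. It was also called by edgeR with upper-quartile factors or with no scaling factors. It was not called with RLE factors, with the replicate number as a block, or in any other fit that left out a library. Nor was it called by limma on log2(FPKM + 1) or log2(FPKM + 0.1). DESeq2 called it, among 7279 genes in all. That is the number the study reported as differing, and the list was drawn from the study's calls. The DESeq2 call of this gene is therefore no separate support.

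Capann_59Chr06g019880, the gene with primers, had the smallest difference among the genes higher in B010. It had 4.69, 2.96 and 4.5 FPKM in B010, against 1.35, 2.45 and 1.84 FPKM in B003. The groups did not overlap, but B010 replicate 2 lay close to B003 replicate 2. The fitted difference on the log2 scale was 1.06 ± 0.32 (SE), just above the limit of 1. The gene was called with all libraries and also without B003 replicate 2, and lost its call when any one of the other 5 libraries was left out. The study also ran qRT-PCR on selected genes and reports that their trends matched those of RNA-seq, without naming this gene in its text.

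The 3 genes higher in B003 had similar fold changes. Capann_59Chr01g037440 was the most abundant of the 9 genes in both accessions, at 107.1, 97.0 and 81.9 FPKM in B010, against 137.2, 250.0 and 249.4 FPKM in B003. In B010 it stood at the 95.8th percentile of all tested genes by mean FPKM, and in B003 at the 98.6th. All B003 libraries lay above all B010 libraries, and B003 replicate 1 stood nearest to B010. The log2 fold change was -1.17 ± 0.32 (SE), a 2.26-fold higher level in B003. It came to -1.44 without B003 replicate 1, and the call was kept in that fit alone among those that left out 1 library.

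Capann_59Chr02g033470 had 17.5, 22.1 and 7.32 FPKM in B010, against 28.6, 41.0 and 38.2 FPKM in B003. B010 replicate 3 was the lowest of all 6 libraries, so that here it lay farther from B003 than replicates 1 and 2 did. The groups did not overlap. In the edgeR fit, the log2 fold change was -1.18 ± 0.48 (SE), and the gene was not called, nor was it called in any fit that left out 1 library. It was called by limma on log2(FPKM + 1), with a difference of -1.26, but not on log2(FPKM + 0.1), with a difference of -1.32. DESeq2 also called it, with a log2 fold change of -1.17. DESeq2 called all 9 genes, so that call is no separate support. Without B010 replicate 3 the log2 fold change in edgeR was -0.80.

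Capann_59Chr12g004590 was counted 65, 25 and 37 times in B010, against 84, 88 and 90 times in B003. Relative to library size, these are 1.37, 0.906 and 1.09 CPM in B010, against 2.14, 2.85 and 2.93 CPM in B003. The groups did not overlap, and B010 replicate 3 lay between replicates 1 and 2. B010 over B003 gave a log2 fold change of -1.22 ± 0.27 (SE), a 2.33-fold higher level in B003. The call was lost without B010 replicate 2, B003 replicate 2 or B003 replicate 3.

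**Figure D2:**
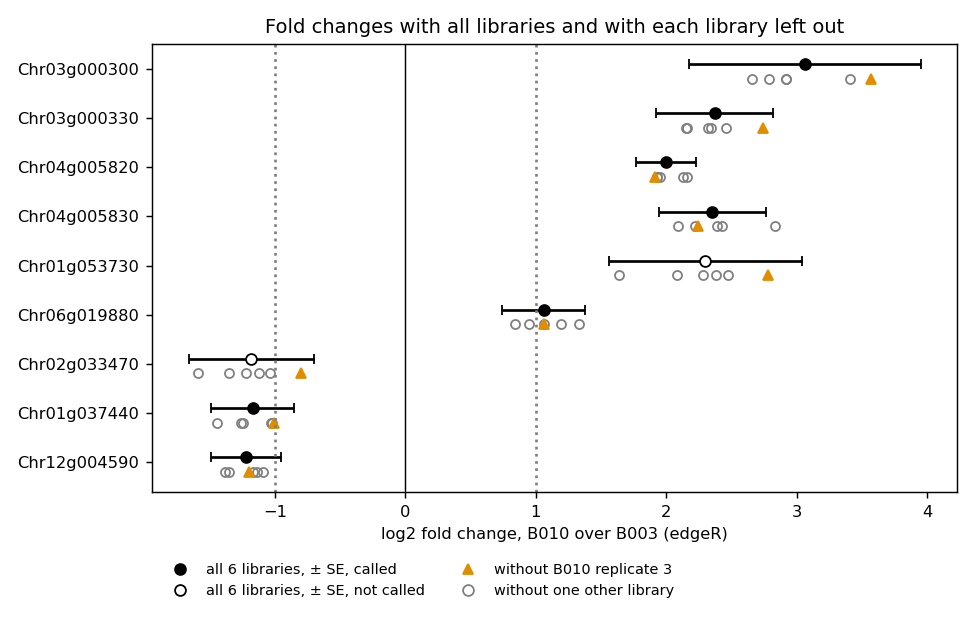
Log2 fold change of B010 over B003 (horizontal axis) of each gene with all 6 libraries, with its standard error, and with 1 library left out, the fit without B010 replicate 3 as a triangle. Dotted lines mark the fold-change limit of 1. Leaving out B010 replicate 3 gave the largest value of all fits for Chr03g000300 (3.57), Chr03g000330 (2.74) and Chr01g053730 (2.78), and the value nearest to 0 for Chr02g033470 (-0.80).

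Among the 9 genes, mean FPKM spanned 154.2-fold in B010 and 2827-fold in B003. In both accessions Capann_59Chr01g037440 came first and Capann_59Chr03g000300 last. In B010, 5 of the 8 neighbouring steps in the order of levels overlapped between the replicates. The order in B010 was Capann_59Chr01g037440, Capann_59Chr01g053730, Capann_59Chr02g033470, Capann_59Chr12g004590, Capann_59Chr06g019880, Capann_59Chr03g000330, Capann_59Chr04g005820, Capann_59Chr04g005830 and Capann_59Chr03g000300. Capann_59Chr01g053730 and Capann_59Chr02g033470 were not separated there, and nor were adjacent genes from Capann_59Chr12g004590 down to Capann_59Chr04g005830. In B003, Capann_59Chr02g033470 and Capann_59Chr12g004590 stood above Capann_59Chr01g053730, and 1 of the 8 steps overlapped, that between Capann_59Chr04g005820 and Capann_59Chr03g000330. The median level of the 9 genes was 4.05 FPKM in B010 and 1.88 FPKM in B003, beside 9.0 and 8.74 FPKM over all tested genes.

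The implied exon lengths ran from about 247 to about 3858 bases. The 3 genes higher in B003 were the shortest, at about 247 to 464 bases, and the 6 genes higher in B010 had about 717 to 3858 bases. This split was seen after the values were known and was not tested. The 8 other calcium genes of the list did not show it. Their 1 gene higher in B003, Capann_59Chr06g016150, had about 3618 bases, and their shortest, Capann_59Chr07g019510, had about 854 and was higher in B010. The median over all tested genes was about 1675 bases. These lengths are approximate, since the total count on genes stood in for the mapped reads of a library, and for each of the 9 genes they differed by 2.24% to 5.32% between libraries.

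B010 replicate 3 set the 9 genes apart into different patterns among the replicates. Its CPM lay below the mean of B010 replicates 1 and 2 by more than 1 on the log2 scale in 4 of the 9 genes. The log2 ratio was -2.99 for Capann_59Chr03g000300, -2.72 for Capann_59Chr01g053730, -1.64 for Capann_59Chr02g033470 and -1.60 for Capann_59Chr03g000330. In the other 5 genes it was between -0.55 and 0.29. Over all tested genes, 9.85% had a ratio under -1 and the median was 0, and among the 3088 genes called as higher in B010 the share under -1 was 33.0%. Of the 4 genes, 3 were higher in B010 and 1, Capann_59Chr02g033470, was higher in B003. B010 replicate 3 had 30287766 counts, against 47659515 in replicate 1 and 29891192 in replicate 2, and the TMM factors were 1.12, 0.996 and 0.923 for replicates 3, 1 and 2. The part of these library values in the pattern was not tested. In bulk tissue, fewer cells of a type and less RNA per cell cannot be told apart.

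**Figure D3:**
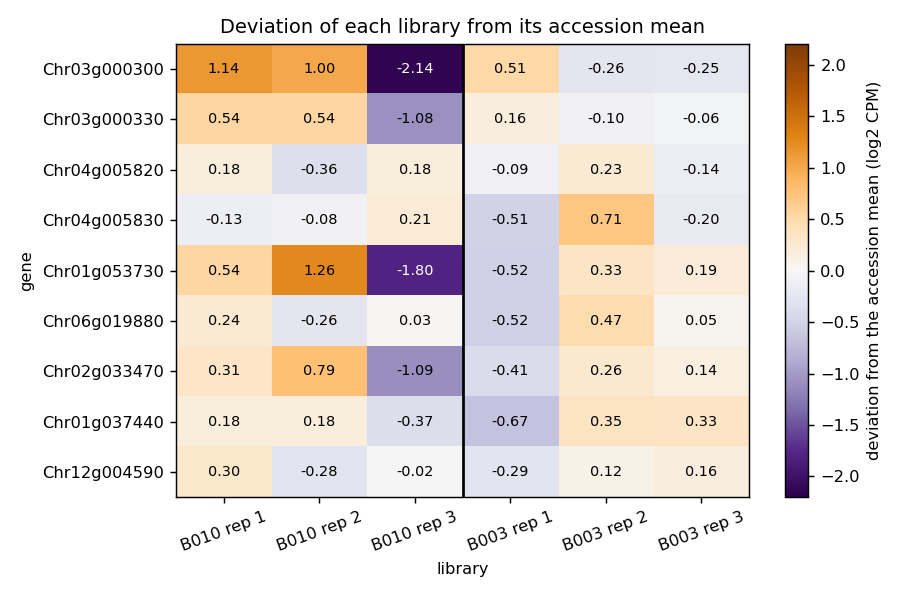
Deviation of log2 CPM from the accession mean for each gene (vertical axis) in each library (horizontal axis), on a colour scale in log2 units. In B010 replicate 3, Chr03g000300 (-2.14), Chr01g053730 (-1.80), Chr02g033470 (-1.09) and Chr03g000330 (-1.08) lie far below the mean, and the chromosome 4 pair lies above it (0.18 and 0.21).

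After the accession means were subtracted, the deviations of Capann_59Chr01g053730 and Capann_59Chr02g033470 over the 6 libraries had a Pearson's r of 0.997, although these genes differ between the accessions in opposite directions. Those of the chromosome 3 pair had an r of 0.995, and those of the chromosome 4 pair 0.578. Of the 36 pairs among the 9 genes, 2 had an r of at least 0.9 and 12 had a negative r, with a median of 0.30. The 6 points share their libraries and scaling, and B010 replicate 3 is the extreme point for the pairs with the highest r, so these values are a description only.

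The edgeR biological coefficient of variation between replicates was 0.681 for Capann_59Chr03g000300 and 0.594 for Capann_59Chr01g053730, higher than in 96.2% and 94.0% of all tested genes. For Capann_59Chr04g005820 it was 0.242 and for Capann_59Chr12g004590 0.251, near the median of 0.247 over all tested genes. The median over the 9 genes was 0.307.

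The 8 genes of the list in the groups on chromosomes 6 and 7 were chosen by the study in the same way. Of them, 6 were called as higher in B010 and 1 as higher in B003, with log2 fold changes from -1.82 ± 0.19 (SE) for Capann_59Chr06g016150 to 3.59 ± 0.89 (SE) for Capann_59Chr06g016200. Their median absolute log2 fold change was 2.13, beside 2.00 for the 9 genes. B010 replicate 3 was the lowest B010 library in 7 of the 8, in 5 of the 9 genes and in 39.1% of all tested genes. Its ratio to replicates 1 and 2 was under -1 in 4 of them, as it was in 4 of the 9 genes. All 17 genes share the 6 libraries, and no difference between both parts of the list was tested.

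The genes next to the 9 on their chromosomes were not chosen by their values and can be tested. The 5 listed genes on each side gave 72 genes, all of which passed the filter. Of these, 23 were called, or 31.9%, with 11 higher in B010 and 12 higher in B003, beside 23.9% of all tested genes with a chromosome identifier. The difference between these shares was not tested. Among the neighbours, absolute log2 fold changes had a median of 0.79.

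**Figure D4:**
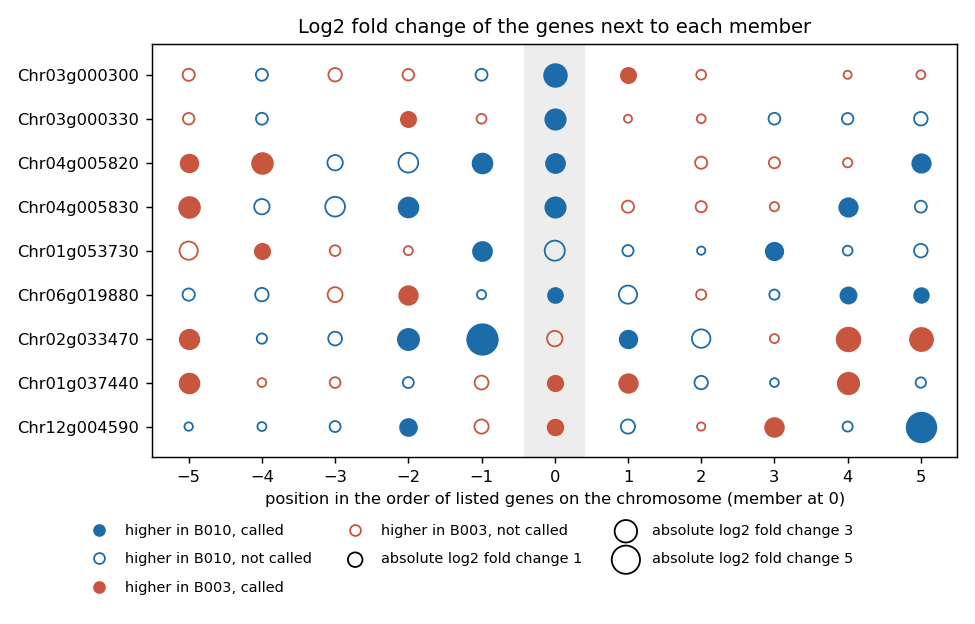
The 9 genes at position 0 and up to 5 listed genes on each side of them in identifier order (horizontal axis), with the area of each circle growing with the absolute log2 fold change, blue for higher in B010, red for higher in B003, and filled where called. Empty positions hold another gene of the list. The largest circles belong to Chr02g033460 (5.88), next to Chr02g033470, and Chr12g004660 (5.53).

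Between the members of the chromosome 3 pair lie 2 listed genes. Capann_59Chr03g000310 differed in the direction opposite to the pair, at 3.45, 3.01 and 2.98 CPM in B010, against 7.35, 7.11 and 6.21 CPM in B003. B010 replicate 3 did not stand apart for this gene, and the accessions did not overlap. The fitted difference on the log2 scale was -1.13 ± 0.17 (SE, adjusted p = 0.00535 in edgeR), and the gene was called whichever library was left out. With limma on log2(FPKM + 1) the difference was -0.58, inside the fold limit. Capann_59Chr03g000320 averaged 2.5 ± 0.42 CPM over the B010 libraries and 2.89 ± 0.483 CPM over those of B003 (SD, n = 3 each), with a log2 fold change of -0.21 ± 0.24 (SE, adjusted p = 0.522 in edgeR), and was not called. Of the 12 genes around this pair, Capann_59Chr03g000310 was the 1 that was called.

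Beside Capann_59Chr02g033470, whose mean was lower in B010, lies Capann_59Chr02g033460, which was far higher in B010. It had 286.9, 382.5 and 39.7 CPM in B010, against 4.2, 7.27 and 0.521 CPM in B003. B010 replicate 3 was again the lowest B010 library but lay above all of B003. The log2 fold change was 5.88 ± 1.28 (SE, adjusted p = 0.0167 in edgeR), and without B010 replicate 1 the adjusted p was 0.0541, in a range from 2.19e-08 to 0.0541 over all alternatives. On the other side, the adjacent Capann_59Chr02g033500 was also called as higher in B010, with a log2 fold change of 1.66 ± 0.51 (SE, adjusted p = 0.0463 in edgeR). Capann_59Chr02g033530, 4 places after Capann_59Chr02g033470, was higher in B003, by a log2 fold change of -3.35 ± 0.50 (SE, adjusted p = 0.00524 in edgeR). Its neighbour Capann_59Chr02g033540 had 22.4, 20.7 and 36.7 CPM in B010, against 22.1, 322.4 and 370.7 CPM in B003, where replicate 1 lay inside the B010 range. Its log2 fold change was -3.16 ± 0.97 (SE, adjusted p = 0.0457 in edgeR), and it was called in 1 of the 6 fits that left out a library, the one without B003 replicate 1, with adjusted p from 0.000826 to 0.144 over all alternatives.

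Near Capann_59Chr12g004590, the fifth gene after it, Capann_59Chr12g004660, had 130.4, 128.5 and 157.8 CPM in B010, against 0.992, 1.26 and 6.8 CPM in B003. The accessions did not overlap, and the direction was opposite to that of Capann_59Chr12g004590. Its log2 fold change was 5.53 ± 0.86 (SE, adjusted p = 0.00612 in edgeR). Near Capann_59Chr01g037440, the fourth gene after it, Capann_59Chr01g037540, shared its direction, with a log2 fold change of -2.67 ± 0.45 (SE, adjusted p = 0.00815 in edgeR). It had 14, 14 and 19 counts in B010, against 172, 71 and 59 counts in B003.

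Genes adjacent to a member were called in 6 of 16 cases, 3 in the direction of the member and 3 in the opposite direction. Beside this stand 31.9% of the 72 neighbours and 23.9% of all tested genes with a chromosome identifier, and no difference was tested. Those in the opposite direction were Capann_59Chr03g000310, Capann_59Chr02g033460 and, after Capann_59Chr02g033470, Capann_59Chr02g033500. In the same direction, Capann_59Chr01g037460 stands beside Capann_59Chr01g037440 and the other two beside genes higher in B010. Capann_59Chr03g000310 is named for its position and Capann_59Chr02g033460 for the size of its change, and the other adjacent genes were chosen after their values were seen. Capann_59Chr04g005810, adjacent to the chromosome 4 pair, had 179.8, 212.7 and 78.4 CPM in B010, against 45.4, 33.9 and 20.9 CPM in B003. All B010 libraries lay above all B003 libraries. Its log2 fold change was 2.23 ± 0.46 (SE, adjusted p = 0.0142 in edgeR), and the adjusted p was 0.0541 without B010 replicate 1 and 0.0556 without B003 replicate 2, in a range from 1.46e-05 to 0.0556 over all alternatives. Unlike both members of the pair, it was lowest within B010 in replicate 3. Capann_59Chr01g053720, adjacent to Capann_59Chr01g053730, had a log2 fold change of 2.01 ± 0.30 (SE, adjusted p = 0.00534 in edgeR). Its B010 libraries had 3.75, 2.21 and 3.15 CPM, against 0.712, 0.905 and 0.651 CPM in B003, so that B010 replicate 3 did not drop as it did in the adjacent member.

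Over the 6 libraries, other genes followed a course of nearly the same shape as each member, though not always of the same size. Among 22884 genes with a mean log2 CPM of at least 0, the highest Pearson's r of log2 CPM with a member ranged from 0.992 to 0.999. The gene most like Capann_59Chr04g005820 was LJ_newGene_8167 and the one most like Capann_59Chr04g005830 was LJ_newGene_7780, both loci without a cv.59 identifier. Capann_59Chr03g000300 was most like Capann_59Chr07g022340, Capann_59Chr03g000330 most like Capann_59Chr07g018850 and Capann_59Chr01g053730 most like Capann_59Chr03g019160. Capann_59Chr03g019160 had 32.4, 66.9 and 3.13 CPM in B010, against 1.81, 4.46 and 4.23 CPM in B003, and so repeated the low B010 replicate 3 of that member. For Capann_59Chr06g019880 the nearest was Capann_59Chr06g000860, for Capann_59Chr02g033470 it was Capann_59Chr02g014710, for Capann_59Chr01g037440 it was Capann_59Chr03g045090 and for Capann_59Chr12g004590 it was Capann_59Chr03g017150. Between 121 and 1174 genes had an r of at least 0.95 with a given member, so a high r over 6 libraries is common and describes shape alone.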

How the data were processed

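The authors filtered paired reads of 150 bases and aligned them with HISAT2 to the cv.59 genome, and StringTie is also named in the submitters' processing notes. The counts were deposited as integers for each gene, with no normalization. The deposited FPKM values are scaled by exon length and mapped reads. The program, strand setting and treatment of reads with several alignments used for counting are not given in the sources used here. The log2 fold changes, p-values and q-values that the authors deposited hold their own comparison and were not used. The table held 0 further columns of per-sample values. Columns were assigned to accessions from the header of the table.

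These counts entered edgeR 4.0.16 under R 4.3.3 (expression filter, TMM, quasi-likelihood test, no covariate, Benjamini-Hochberg adjustment over 24738 genes, 91 removed). Standard errors (SE) were derived from each log2 fold change and its F statistic. Replicates are separate pools of plants, and p-values measure the spread between pools. Intervals cover counting error only. DESeq2 1.42.0 and limma 3.58.1 served as alternatives, and all 3 tools were tested on simulated data. The 9 members and all lists were chosen with earlier results of these data known. Named genes were the members, genes between members, the 5 called neighbours with the largest change and the most similar gene to each member, with the highest and lowest of the 8 other calcium genes. The adjacent genes Capann_59Chr04g005810, Capann_59Chr01g053720, Capann_59Chr02g033500 and Capann_59Chr01g037460 fall outside this rule and were chosen after their values were seen. The gene table of UCD10Xv1.1 matched 0 identifiers.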

Additional observations from a re-analysis of the deposited data

How the results depend on the processing

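With 7 of the 9 genes called, the count was 3 with the replicate number as a block, 4 when a call needed an absolute log2 fold change of 2 and 9 by DESeq2. Leaving out 1 library gave 3 to 6. The labels do not state whether equal replicate numbers mark paired samples. Deviations of same-numbered libraries had an r of -0.003, 0.076 and 0.178. No differently numbered libraries were compared, so these values do not settle the pairing. In every setting that tested all 9 genes, 6 were higher in B010. Of 160 recomputed values of the 9 genes, 30 lost a call, 7 gained one, 0 changed direction and the rest kept their side of the thresholds. All genes called numbered 6260, against 9598 without a fold limit, 3229 with the fold limit at 2 and 5458 with the block. Fits with 1 library left out called 3615 to 6967 of all genes. DESeq2 called 7279 of all genes, more than the main fit. Its calls of all 9 members are no separate support, for the reason given in the Results. The 8 calcium genes of the groups on chromosomes 6 and 7 had 7 calls, 4 with the limit of 2 and 3 to 8 with 1 library left out. The neighbours had 23, 11 with the limit of 2 and 12 to 25 with 1 library left out. For the chromosome 4 pair, counts with 1 added gave a log2 ratio of 2.73 in B010 and 3.08 in B003, since counts are not divided by exon length. A filter of 10 counts in each library left Capann_59Chr03g000300 and Capann_59Chr04g005830 untested. Counts of 7 to 16 limit the B003 values of both.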

Other observations

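The gene most like Capann_59Chr06g019880 over the 6 libraries also had nearly its counts, a comparison added after the data were seen. Capann_59Chr06g019880 was counted 159, 65 and 98 times in B010, against 36, 57 and 42 times in B003. Capann_59Chr06g000860 was counted 162, 66 and 99 times in B010, against 36, 66 and 47 times in B003. Over the 6 libraries the chi-square sum of the pair was 0.98. With Capann_59Chr06g019880, 3 genes had a sum under 6, and with Capann_59Chr12g004590, another gene of low counts, 7 genes did. Whether reads of both genes were shared was not tested.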
